A study of Mus musculus with 6 samples.

Results

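Mitosis genes encode the cyclins, kinases, motors, kinetochore proteins and ubiquitin ligase subunits that condense, align and separate the chromosomes. The list holds 34 such genes, and its members are those with a probe set that carries only their symbol in the deposited value table. For each gene the probe set with the highest mean log2 value over all arrays was used, and any other probe set of the gene served as a check. The table gave 33 of the 34 genes, of 13146 genes measured in all. Ccnb1, which encodes cyclin B1, had no named probe set and is not analysed here. All 33 passed the filter on dim genes, and all 33 lay above its limit on all 6 arrays, so that no member entered the test through 1 group alone.

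Most of these genes are transcribed in G2 and early mitosis and switched off again in G1. Their mRNA therefore reports how large a part of a population is cycling as well as how much each cycling cell makes, and an array of pooled cells cannot tell these apart. In bone marrow, committed progenitors divide actively, so the normal counterpart is itself a proliferating population.

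The arrays compared sorted Lin-/Sca1-/cKit+ cells, a progenitor fraction that lacks the markers of mature lineages and Sca1 and carries the receptor Kit. The 3 leukemia samples were spleen cells of MF1 mice, each a separately numbered mouse, that had been lethally irradiated and transplanted with progenitors transduced with AE9a, a truncated AML1-ETO fusion. The 3 wild-type samples were bone marrow cells of wild-type MF1 mice, with no statement on how many mice made up a sample. All mice were 12 to 16 weeks old and each array received cRNA from 200 ng of total RNA. Leukemia, the organ of origin and transplantation differ together between the groups and cannot be told apart. Whether cells of the irradiated host remained in the sorted fraction is not given, and the p-values measure the spread between these 6 samples.

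Array-wide measures frame the values of the members. The median intensity per array ran from 71.6 to 79.9, and the number of arrays limits the precision of every value. Kit lay above the filter on all arrays (9.34 to 9.80 log2 in leukemia, 10.35 to 10.42 in wild-type) but fell by 0.76 (limma adjusted p = 0.00436), and the progenitor marker Cd34 fell by 3.60 (adjusted p = 0.000925), while Ly6a, the gene of Sca1, had no named probe set. All 3 measured T and NK cell markers lay below the filter on all leukemia arrays, as did 6 of 6 mature neutrophil, 6 of 7 macrophage, 3 of 4 B cell and 5 of 6 stroma and endothelium markers. On all wild-type arrays 2, 1, 3, 2 and 4 markers of these lists did, in that order. Mature neutrophil sums were 159 to 713 in wild-type and 99 to 106 in leukemia, and macrophage sums 473 to 634 and 141 to 181. Of 4 plasma cell markers 1 lay below the filter on all leukemia arrays and 0 on all wild-type arrays. Plasma cell sums were 1309 to 1631 in wild-type and 1011 to 2460 in leukemia. Of the granulocyte and monocyte progenitor markers 8 of 8 measured genes fell, with a summed intensity of 29046 to 37522 in wild-type and of 155 to 281 in leukemia. Of 5 megakaryocyte markers 4 fell (sums of 1644 to 1809 against 282 to 297). Of 6 measured erythroid markers 3 rose and 0 fell, with sums of 4657 to 6954 against 2884 to 7200. The 3 risen ones, Alas2, Slc4a1 and Epb42, lay below the filter on all wild-type arrays and were tested only through leukemia. Likewise 6 of the 8 fallen granulocyte and monocyte progenitor markers lay below it on all leukemia arrays and were tested only through wild-type. Over all genes tested 16.9% rose and 25.2% fell. The control probe set at the 5' end of 18S rRNA lay at 7.77 to 9.41 log2 in wild-type and at 11.14 to 12.35 in leukemia. These shifts accompany every change given here, and their part in it was not tested.

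Part of the mitosis genes rose in the leukemia fraction. Of the 33 members 18 rose (limma, adjusted p under 0.05, a share of 54.5%), against 16.9% of all 9715 genes tested. No member fell (0 of 33), against 25.2% of all genes. At an unadjusted p under 0.05 also 0 members were lower, against 2951 of all 9715 genes tested. The median change of the members was 0.45 on the log2 scale and that of all genes tested was -0.09. For 21 members every leukemia array lay above every wild-type array, against 24.2% of all genes tested, and 3 of these 21 (Cdca3, Cenpf and Birc5) did not pass the test. Among the 15 members without a call 11 had a positive and 4 a negative change.

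The rises were small. They ran from 0.33 to 0.92 log2, or 1.25-fold to 1.90-fold, with a median of 0.55. None of the 18 reached 2-fold with the probe set used, whereas 725 of the 1637 genes that rose in the whole table did (44.3%), with a median rise of 0.91. The 1637 include genes below the filter on all wild-type arrays, such as Alas2 and Slc4a1, while every member lay above it on all 6 arrays. The sets are unlike in this, and the 2-fold share was not computed for genes above the filter on all arrays. The absence of 2-fold rises among the 18 held narrowly for Kif23. It reached 1.00 log2 with centred arrays, 1.13 with the hybridization run as a block, 1.03 without wild-type replicate 2 and 1.01 without leukemia replicate 2. Cenpe reached 1.01 with the mean of all probe sets. Further probe sets of Hmmr (1.63), Cenpe (1.5) and Kif23 (1.05), and of Kif11 (1.70), which has no call, also lay above 2-fold. The wild-type arrays agreed closely on the members, with a median SD of 0.0845 log2 against 0.112 over all genes, and the leukemia arrays less so (0.204 against 0.221).

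The calls depended on the wild-type arrays. Without wild-type replicate 1, 2 or 3 the count of risen members was 10, 8 and 8, and the share of all genes that rose was then 11.5%, 11.4% and 11.7%. Without leukemia replicate 1, 2 or 3 the count was 18, 18 and 14, and the share of all genes was 19.9%, 16.5% and 15.3%. All 18 stayed higher in leukemia in each of these 6 fits. Ccna2, Ccnb2, Cdc20, Kif23, Mki67 and Nusap1 passed under all 17 alternatives tried. With only probe sets free of a shared ending (_a_at, _s_at or _x_at) 24 members could be tested and 12 rose, 11 of them among the 18. The share of all genes that rose was then 16.5%. Cdc25c, Cenpa, Nuf2 and Prc1, all risen, had no such probe set.

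**Figure D1:**
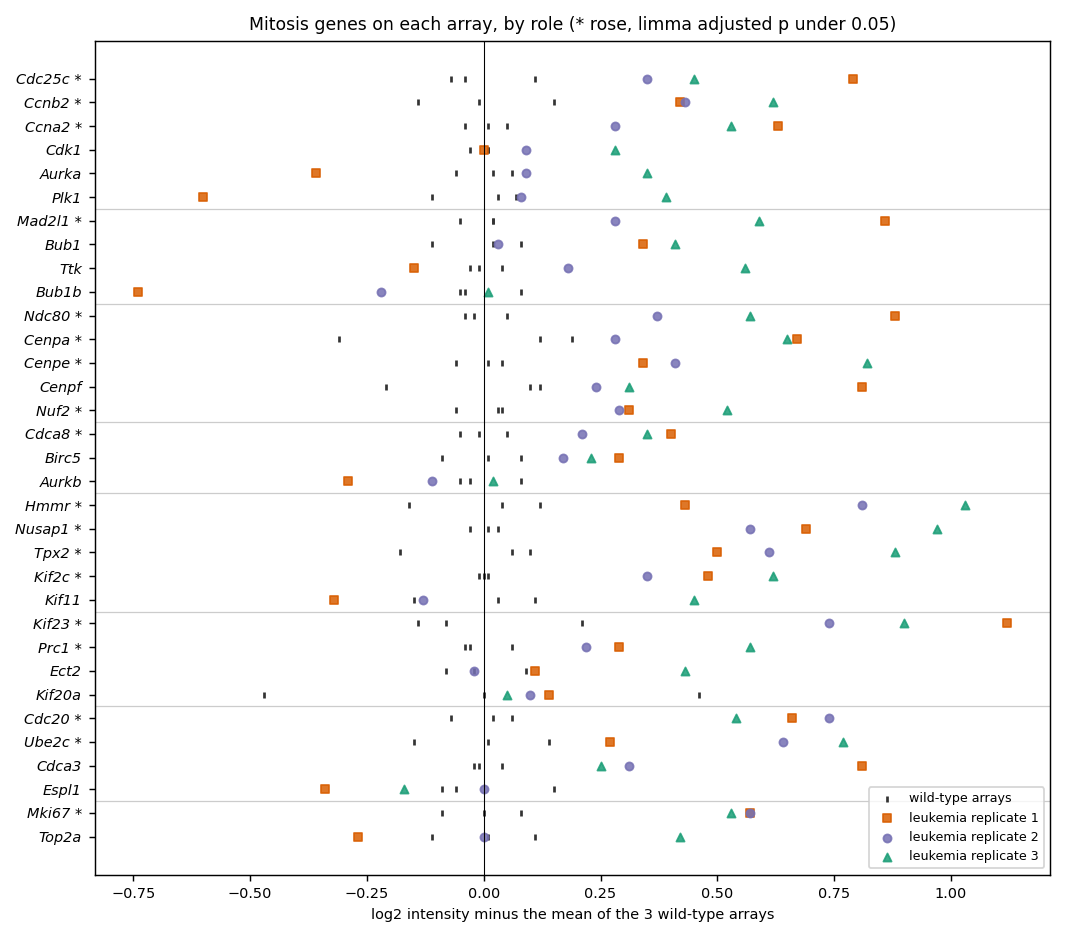
Values of the 33 mitosis genes on each of the 6 arrays, as log2 intensity minus the mean of the 3 wild-type arrays, grouped by role with grey lines between roles; an asterisk marks the 18 genes that rose. The black ticks of the wild-type arrays spread most for Kif20a (SD 0.467) and next for Cenpa (SD 0.272). The square of leukemia replicate 1 lies to the left of 0 for Plk1, Bub1b, Aurka, Kif11, Ttk, Aurkb, Espl1 and Top2a.

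Promoters of mitosis genes often carry a CHR (cell cycle genes homology region), a short element bound by the MuvB complex, which represses these genes in resting cells and, with B-MYB and FOXM1, activates them in G2. They also often carry CCAAT boxes, bound by NF-Y. The RefSeq promoter table of build GRCm38.p6 held 29 of the 34 listed genes, from 250 bases before to 50 bases after each start site. Windows of 100 bases before to 20 bases after the start are shown for the largest rises, Kif23 and Hmmr, for Cdc20, which rose, for Cdk1, which did not pass, and for Ccnb1, which was not measured. Capitals mark the CHR letters TTTGAA, the related TTTAAA and CCAAT, each on either strand (the last then reads ATTGG).
Kif23, chr9:61946780-61946899, minus strand: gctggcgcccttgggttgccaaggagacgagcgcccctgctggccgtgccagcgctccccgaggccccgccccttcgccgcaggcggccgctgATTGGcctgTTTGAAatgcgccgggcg
Hmmr, chr11:40733418-40733537, minus strand: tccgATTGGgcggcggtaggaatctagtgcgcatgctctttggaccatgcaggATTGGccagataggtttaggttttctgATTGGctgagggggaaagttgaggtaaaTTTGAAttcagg
Cdc20, chr4:118437324-118437443, minus strand: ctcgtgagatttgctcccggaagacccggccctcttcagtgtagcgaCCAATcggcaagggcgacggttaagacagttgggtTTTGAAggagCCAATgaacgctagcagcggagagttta
Cdk1, chr10:69352893-69353012, minus strand: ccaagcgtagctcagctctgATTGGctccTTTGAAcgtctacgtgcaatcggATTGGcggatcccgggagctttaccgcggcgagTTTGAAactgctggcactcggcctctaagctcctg
Ccnb1, chr13:100786467-100786586, minus strand: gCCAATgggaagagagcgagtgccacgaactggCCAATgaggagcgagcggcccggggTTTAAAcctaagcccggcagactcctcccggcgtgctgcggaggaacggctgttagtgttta

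In these windows the CHR letters began at position 3 after the start in Kif23, at 9 in Hmmr and at -18 in Cdc20, and in Cdk1 they occurred at -71 and -15. Ccnb1 held TTTAAA at -42 in their place. Over the 300 bases TTTGAA was present, on either strand, in 22 of 29 mitosis genes (75.9%), against 20.2% of all 27025 genes with a promoter and 14.2% of the 8005 tested genes with one. Within 100 bases before to 50 after the start the shares were 72.4% (21 of 29), 9.2% and 5.7%. CCAAT was present in 23 of 29 members (79.3%) and in 41.1% of all genes over the 300 bases. It was also present in 58.5% of the other mitosis genes and 59.5% of the DNA replication genes described below. TTTGAA did not separate risen from other members. It was found in 11 of 15 risen members with a promoter in the table and in 11 of 13 members without a call. CCAAT was found in 10 of these 15 and 12 of these 13. Nusap1, Mad2l1 and Nuf2, all risen, and Birc5, without a call, held neither set of letters in these 300 bases, and Birc5 held TTTAAA. A match is a description of letters, and binding was not measured.

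**Figure D2:**
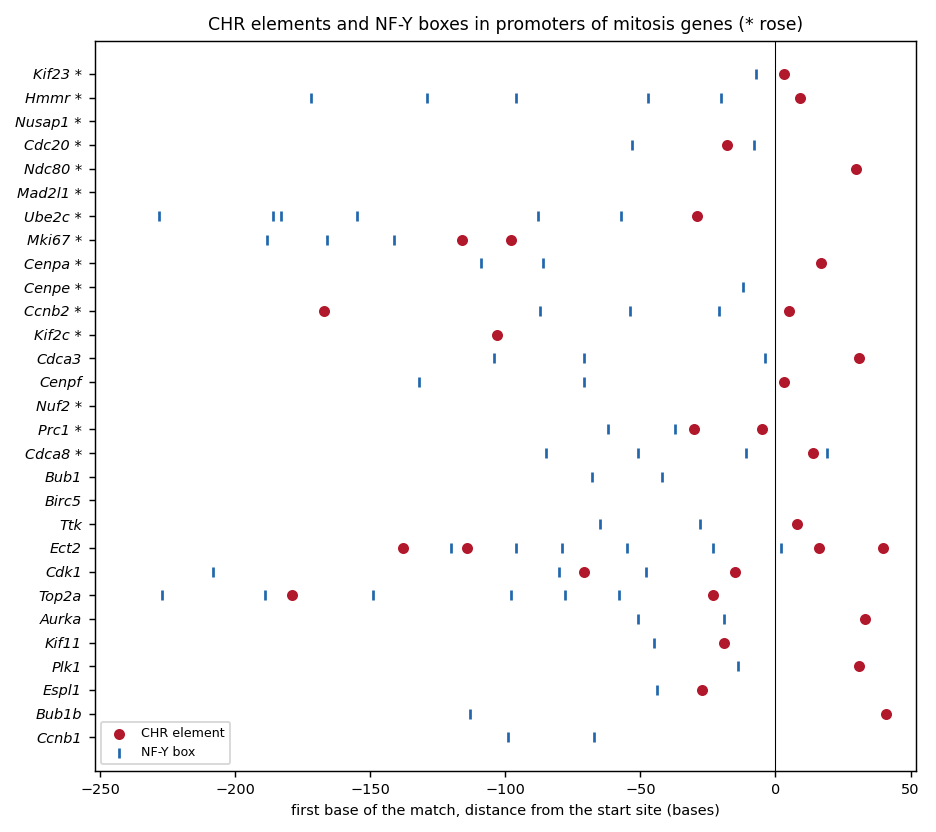
Position of CHR elements (red points) and NF-Y boxes, the CCAAT letters (blue ticks), along the promoters of 29 listed genes, as the distance of the first base of each match from the RefSeq start site in bases, with genes ordered by change from Kif23 down and the unmeasured Ccnb1 last. Most red points lie close to the start, in genes with an asterisk (rose) and in genes without.

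Genes of mitotic entry were divided. Cyclin genes rose while the genes of the major entry kinases did not pass. Of the 6 measured genes of this role 3 rose (50%, against 16.9% of all genes) and 0 fell. Cdc25c encodes a phosphatase that activates Cdk1. It was at 6.98, 6.80 and 6.83 log2 in wild-type and at 7.66, 7.22 and 7.32 in leukemia, so that the groups did not overlap and leukemia replicate 1 was highest (change 0.53 ± 0.165 SE, limma adjusted p = 0.039). Its further probe set changed by 0.48, and its call was lost without any 1 of the wild-type replicates (adjusted p = 0.0794 to 0.124, limma) and without leukemia replicate 3 (0.056). Ccnb2, the gene of cyclin B2, rose by 0.49 ± 0.10 (limma adjusted p = 0.00811), and Ccna2, that of cyclin A2, rose by 0.48 ± 0.0973 (adjusted p = 0.00791). The further probe set of Ccna2 gave 0.52.

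Cdk1 encodes the kinase that those cyclins activate. It was at 11, 11 and 10.96 log2 in wild-type and at 10.99, 11.08 and 11.27 in leukemia, with leukemia replicate 1 inside the wild-type range and the other leukemia arrays above it. Its change of 0.13 did not pass (95% interval -0.07 to 0.33, limma adjusted p = 0.257). Aurka, the kinase of spindle poles, was at 9.22, 9.14 and 9.26 in wild-type and at 8.84, 9.29 and 9.55 in leukemia, on both sides of the wild-type values (change 0.02, interval -0.41 to 0.45, limma adjusted p = 0.935). Plk1, the polo kinase of entry and spindle assembly, spread likewise, from 8.51 on leukemia replicate 1 through 9.19 to 9.50 on replicates 2 and 3, around a wild-type mean of 9.11 ± 0.0906 (SD, n = 3). Its change of -0.04 had an interval of -0.61 to 0.54, and turned to 0.04 with the arrays centred on their medians and to 0.24 without leukemia replicate 1.

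Of the 4 spindle checkpoint genes, which hold anaphase back until every kinetochore is attached, 1 rose (25%) and 0 fell. Over all genes tested 16.9% rose. Mad2l1, whose product blocks Cdc20, was at 10.53, 10.53 and 10.46 log2 in wild-type and at 11.37, 10.79 and 11.10 in leukemia. All leukemia arrays were higher (change 0.58 ± 0.142 SE, limma adjusted p = 0.0158), and without any 1 of the wild-type replicates the adjusted p was 0.0504 to 0.0623. Ttk, the Mps1 kinase that starts checkpoint signalling, was at 8.70, 8.65 and 8.63 in wild-type and at 8.51, 8.84 and 9.22 in leukemia. The groups overlapped, and the change of 0.20 did not pass (interval -0.24 to 0.63, limma adjusted p = 0.418). The checkpoint kinase gene Bub1 gave 0.26 (limma adjusted p = 0.132, and 0.38 with adjusted p = 0.0333 without leukemia replicate 2). Bub1b, which encodes BubR1, gave -0.31 (interval -0.76 to 0.14, limma adjusted p = 0.22), the most negative of the list, with 8.90 on leukemia replicate 1 and 9.42 and 9.65 on the others, while its further probe set above the filter gave 0.04.

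Centromere and kinetochore genes were higher throughout. Of 5 genes 4 rose (80%, against 16.9% of all genes) and 0 fell. In all 5 the leukemia arrays lay above the wild-type arrays, against 24.2% of all genes. Ndc80, a microtubule-binding subunit of the outer kinetochore, was at 7.69, 7.67 and 7.76 log2 in wild-type and at 8.59, 8.08 and 8.28 in leukemia (change 0.61 ± 0.16 SE, limma adjusted p = 0.021). Its partner Nuf2 was at 7.91, 8 and 8.01 in wild-type and at 8.28, 8.26 and 8.49 in leukemia, the smallest rise of the role (0.37 ± 0.124, adjusted p = 0.0481). Cenpa, the centromeric histone H3 variant, rose by 0.54, and Cenpe, a kinetochore kinesin, rose by 0.53. Cenpf, a large kinetochore and matrix protein gene, gave 0.45 without passing (limma adjusted p = 0.0865). A further probe set of Cenpe was higher by 1.5. Each of the 4 calls was lost without any 1 of the wild-type replicates (limma adjusted p = 0.0645 to 0.0741 for Ndc80, 0.0518 to 0.0963 for Cenpa, 0.0707 to 0.0895 for Cenpe and 0.114 to 0.154 for Nuf2). That of Cenpa was also lost without leukemia replicate 1 (0.0759) or 3 (0.0898), and that of Nuf2 without leukemia replicate 2 (0.0635) or 3 (0.121).

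The chromosomal passenger complex corrects faulty attachments and later directs cytokinesis. Of its 3 listed genes 1 rose (33.3%, against 16.9% of all genes) and 0 fell. Cdca8, which encodes borealin, was at 10.61, 10.51 and 10.55 log2 in wild-type and at 10.96, 10.77 and 10.91 in leukemia (change 0.33 ± 0.0775 SE, limma adjusted p = 0.0147), the smallest of the 18 rises. Its further probe sets gave 0.15 and -0.14, so the probe sets disagree in direction, and the call was lost without wild-type replicate 2 (0.0591) or 3 (0.0602). Birc5, the survivin gene, was higher on every leukemia array by a mean of 0.23 without passing (limma adjusted p = 0.0598). Aurkb, the kinase of the complex, was at 8.97, 8.95 and 9.08 in wild-type and at 8.71, 8.89 and 9.02 in leukemia, an overlap with a change of -0.13 (interval -0.41 to 0.16, limma adjusted p = 0.422).

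Of the 5 spindle motor and microtubule-associated genes 4 rose (80%, against 16.9% of all genes) and 0 fell. Hmmr, which encodes a spindle-associated hyaluronan receptor, was at 9.18, 8.90 and 9.10 log2 in wild-type and at 9.49, 9.87 and 10.09 in leukemia (change 0.76 ± 0.169 SE, limma adjusted p = 0.0113). Its further probe sets were all higher, by 0.20, 0.23, 0.31 and 1.63. The call of Hmmr was lost with the mean of all probe sets (0.63, limma adjusted p = 0.0703) and with only probe sets free of a shared ending (0.31, 0.345). Nusap1, a spindle microtubule-bundling protein gene, rose by 0.74 ± 0.11 (limma adjusted p = 0.00206). Tpx2, the activator of Aurora A, rose by 0.67 ± 0.143 (adjusted p = 0.00944), a call lost with the mean of all probe sets (0.23, adjusted p = 0.226), while Aurka itself did not pass. Kif2c, a microtubule-depolymerising kinesin gene, rose by 0.48 with its used probe set, but its further probe set above the filter gave -0.31, so its direction is uncertain. Its call was also lost without any 1 of the wild-type replicates (limma adjusted p = 0.0749 to 0.0778) and without leukemia replicate 3 (0.0574).

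Kif11, the Eg5 motor that pushes spindle poles apart, differed between its probe sets. The used one was at 8.95, 8.87 and 8.69 log2 in wild-type and at 8.52, 8.71 and 9.29 in leukemia, with leukemia arrays below, within and above the wild-type range (change 0.00, interval -0.49 to 0.49, limma adjusted p = 0.991). The further probe sets were higher by 0.59 ± 0.111 and 1.70 ± 0.262 (adjusted p = 0.00582 and 0.00259, limma over all probe sets above the filter). Of the 33 members 20 had further probe sets, 31 in all. Of these 19 lay above the filter and 15 had the sign of the used probe set, 8 passed as higher and 0 as lower, and their median change was 0.25.

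**Figure D3:**
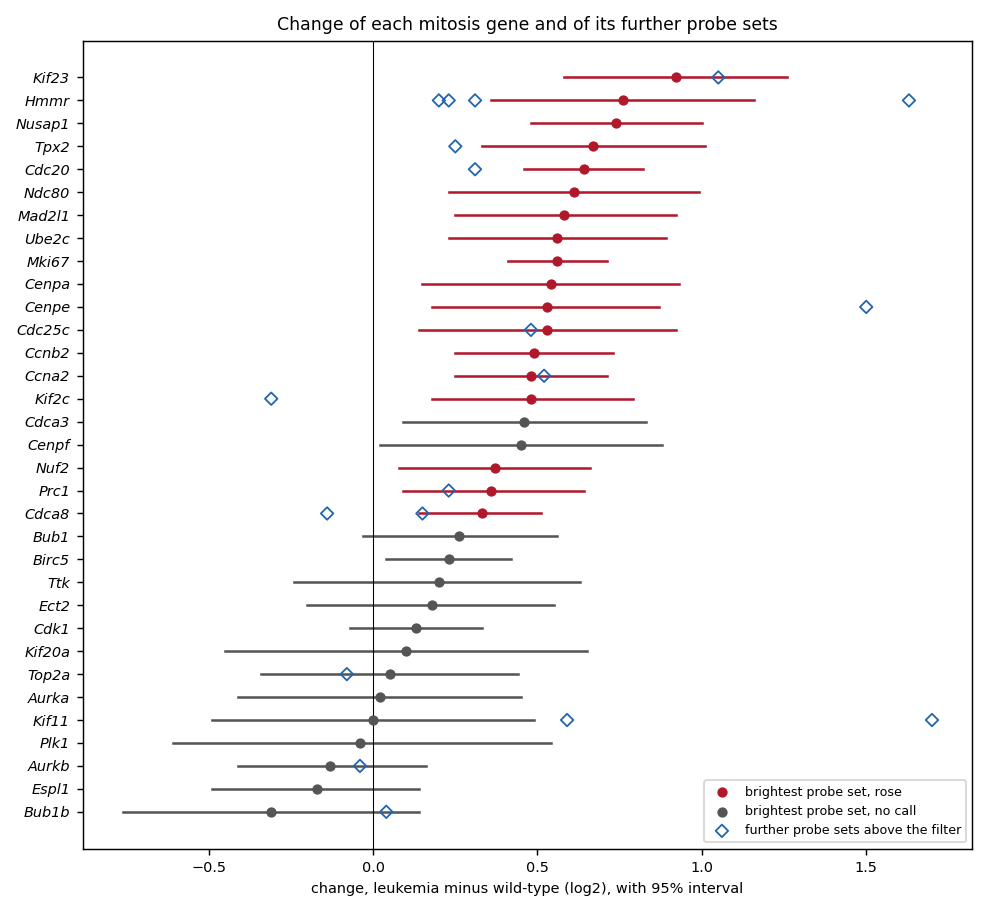
Change of each of the 33 mitosis genes from wild-type to leukemia on the log2 scale (points, with 95% intervals from limma as lines; red, rose; grey, no call) and of their 19 further probe sets above the filter (open diamonds). The diamonds of Kif11 at 0.59 and 1.70 lie to the right of its point at 0.00, and those of Kif2c and Cdca8 at -0.31 and -0.14 lie to the left of 0.

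Of the 4 genes of the central spindle and cytokinesis 2 rose (50%, against 16.9% of all genes) and 0 fell. Kif23, the MKLP1 motor of the central spindle, had the largest rise of the list. It was at 8.90, 9.25 and 8.96 log2 in wild-type and at 10.16, 9.78 and 9.94 in leukemia, well apart (change 0.92 ± 0.143 SE, a 1.90-fold rise, limma adjusted p = 0.00247), and its further probe set above the filter gave 1.05. Prc1, which bundles the antiparallel microtubules of the central spindle, rose by 0.36 ± 0.115 (limma adjusted p = 0.0414). It no longer passed when any 1 of the wild-type replicates (0.0854 to 0.128) or leukemia replicate 3 (0.0935) was left out. Kif20a, the MKLP2 motor, was at 7.77, 8.24 and 8.70 in wild-type and at 8.38, 8.34 and 8.29 in leukemia. Here the wild-type arrays spread more than the leukemia arrays (SD 0.467 against 0.0472), and the change of 0.10 did not pass (interval -0.45 to 0.65, limma adjusted p = 0.749). Ect2, the exchange factor that activates RhoA at the cell equator, gave 0.18 (interval -0.20 to 0.55, limma adjusted p = 0.397).

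The anaphase-promoting complex (APC/C) ubiquitinates cyclin B and securin, which frees separase to cut cohesin. Of the 4 genes of this role 2 rose (50%, against 16.9% of all genes) and 0 fell. Cdc20, its mitotic activator, was at 10.83, 10.74 and 10.87 log2 in wild-type and at 11.47, 11.55 and 11.35 in leukemia, with little spread in either group (change 0.64 ± 0.0755 SE, limma adjusted p = 0.000718), and its further probe set gave 0.31. Ube2c, the E2 enzyme of the complex, rose by 0.56 ± 0.139 (limma adjusted p = 0.0175), from 11.53 ± 0.148 to 12.09 ± 0.263 (SD, n = 3 each). Its call was lost without wild-type replicate 2 (0.0684) or 3 (0.0592). Cdca3, which triggers degradation of the Wee1 kinase, was higher on every leukemia array by a mean of 0.46 with an adjusted p of 0.0517 (limma), and passed without leukemia replicate 1 (0.28, 0.0192) or 3 (0.56, 0.0354). Espl1, the separase gene, was at 8.81, 9.05 and 8.84 in wild-type and at 8.56, 8.90 and 8.73 in leukemia, an overlap (change -0.17, interval -0.49 to 0.14, limma adjusted p = 0.334).

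Mki67 and Top2a, both in wide use as proliferation markers, differed. Mki67, whose product coats mitotic chromosomes, was at 11.07, 11.15 and 10.98 log2 in wild-type and at 11.64, 11.64 and 11.60 in leukemia. Its leukemia arrays agreed to within an SD of 0.0228, and its change of 0.56 ± 0.0635 SE had the lowest adjusted p of the list (limma, 0.000615). Top2a, the topoisomerase that untangles sister chromatids, was at 11.44, 11.54 and 11.32 in wild-type and at 11.16, 11.43 and 11.85 in leukemia. It spread on both sides of the wild-type values (change 0.05, interval -0.34 to 0.44, limma adjusted p = 0.829), and its further probe set gave -0.08.

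The leukemia arrays did not carry the members equally. Relative to the wild-type mean of each gene, the median member was at 0.35 on leukemia replicate 1, 0.28 on replicate 2 and 0.52 on replicate 3, and the median of all genes tested was at -0.10, -0.09 and -0.05. Replicate 3 was the highest leukemia array for 19 of 33 members and the lowest for 4. Replicate 2 was the lowest for 15 and the highest for 3. Replicate 1 was the lowest for 14 members, Plk1, Aurka, Bub1b, Kif11 and Top2a among them, and the highest for 11, among them Kif23, Ndc80, Mad2l1, Cdc25c, Cdca3 and Cenpf. By the hybridization date entries of the run records, leukemia replicates 2 and 3 were taken as 1 hybridization run. Leukemia replicate 1 was taken as 1 run with the 3 wild-type arrays. With the run as a block, that array stands alone against wild-type and is assumed to vary like the others. The median change of the members was then 0.35 and that of all genes tested -0.10. Plk1 was at -0.60 and Bub1b at -0.73. Cdca3 and Cenpf (0.81 each) and Birc5 (0.29) changed more than without the block. Hmmr (0.43), Cenpe (0.35), Ube2c (0.27), Prc1 (0.30) and Nuf2 (0.30) changed less than without it. The erythroid regulator Klf1 was also lowest on that array (9.96, against 11.41 and 11.68 log2 on leukemia replicates 2 and 3), and its part in these differences was not tested.

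Beyond the members, 124 further genes of mitosis were tested from a list of 129. Of these 32 rose (25.8%, against 16.9% of all genes) and 7 fell (5.65%, against 25.2%). Their median was 0.19, and 44 were higher and 10 lower at an unadjusted p under 0.05. Of all 9715 genes tested 2028 were higher and 2951 lower at that unadjusted threshold. Without wild-type replicate 2 or 3 the count of risen genes was 19 each, and 11.4% and 11.7% of all genes rose. The count of fallen genes was 3, 1 and 1 without wild-type replicate 1, 2 or 3 and 2 without leukemia replicate 2. The share of all genes that fell in these fits was not computed. Kinetochore and checkpoint genes were the largest group of these, with 11 of 34 risen (32.4%) and 0 fallen (18 higher and 0 lower unadjusted). Cenpk, of the inner kinetochore network, rose by 0.86 and Oip5, which helps to load the centromeric histone, rose by 0.71. Of 16 condensin and cohesin genes 5 rose (31.2%) and 0 fell (5 higher and 1 lower unadjusted). They were led by the condensin subunit Ncaph (0.78) and the cohesin release factor Wapl (0.72). Of 17 further motors and spindle genes 3 rose and 1 fell. The risen share of 17.6% was near the 16.9% of all genes. Dlgap5 was at 0.83, the kinesin Kifc1 at 0.80 and Numa1, a spindle pole organiser, at -0.43. Of 9 cytokinesis genes 3 rose (33.3%) and 0 fell (5 higher and 0 lower unadjusted), led by Depdc1b (0.70) and Arhgap11a (0.47). Among 15 centrosome genes 2 rose (13.3%, against 16.9% of all genes) and 0 fell (2 higher and 0 lower unadjusted). The 2 were Haus6 (0.52) and the centriole kinase Plk4 (0.39). Several of these calls were lost when an array was left out. That of Plk4 was lost without any 1 of the wild-type replicates (limma adjusted p = 0.0643 to 0.083), without leukemia replicate 3 (0.058) and with only probe sets lacking a shared ending (0.21, 0.223). That of Numa1 was lost without any 1 of the wild-type replicates (0.0512 to 0.0809), without leukemia replicate 2 (0.0541) and with the mean of all probe sets (0.0716). Haus6 no longer passed without wild-type replicate 2 (0.0731) or 3 (0.0616), Arhgap11a without wild-type replicate 3 (0.0568), and Kifc1 without wild-type replicate 3 (0.0553) or with the run as a block (0.0701).

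A list of further mitotic kinases, phosphatases and related genes held the largest single change of these further lists. Cdc25b, the phosphatase that starts Cdk1 activation, was at 8.06, 7.90 and 8.23 log2 in wild-type and at 10.62, 10.96 and 11.28 in leukemia. The groups lay far apart (change 2.89 ± 0.18 SE, a 7.41-fold rise, limma adjusted p = 4.37e-05). The only named probe set of Cdc25b has a shared ending, so no further probe set checks this change. The list moved in both directions. Cdc25a, a phosphatase of the same family, fell by 0.40 ± 0.125 (limma adjusted p = 0.04) and is named after its value was seen. Of the kinases that inhibit Cdk1, Pkmyt1 fell by 0.58 ± 0.15 (limma adjusted p = 0.0205) and Wee1 fell by 0.42 ± 0.128 (adjusted p = 0.0363), and a further probe set of Wee1 gave -0.41. The change of Pkmyt1 was -0.49 with the hybridization run as a block. Its call was lost without wild-type replicate 2 (0.0754) or 3 (0.0756) or leukemia replicate 2 (0.054), and with the replicate block (0.0535). That of Wee1 was lost without any 1 of the wild-type replicates (0.0622 to 0.124), without leukemia replicate 2 (0.0793), with centred arrays (0.0541) and with the mean of all probe sets (0.119). Nek7, a kinase of spindle assembly, rose by 1.14. Of 18 genes in this group 6 rose and 3 fell (33.3% and 16.7%, against 16.9% and 25.2% of all genes).

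Of 15 genes of the APC/C and its regulators 2 rose and 3 fell (13.3% and 20%, near the 16.9% and 25.2% of all genes). Fzr1 encodes Cdh1, which keeps the complex active in late mitosis and G1. It was at 8.55, 8.47 and 8.64 log2 in wild-type and at 7.36, 7.66 and 8.01 in leukemia (change -0.88 ± 0.183 SE, limma adjusted p = 0.0086), the opposite direction to the mitotic activator Cdc20. Fbxo5, the Emi1 inhibitor of the complex, rose by 0.54 and the subunit gene Anapc4 rose by 0.40, while the subunit gene Anapc13 fell by 0.41. The call of Anapc4 was lost without wild-type replicate 1 (limma adjusted p = 0.0654) or 3 (0.0513) and with only probe sets lacking a shared ending (0.23, 0.197), and that of Anapc13 without wild-type replicate 2 (0.0559) or 3 (0.0646).

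Transcription regulators of cell cycle genes moved in both directions. Of 20 tested 3 rose and 5 fell (15.0% and 25.0%, close to the shares of all genes), with a median of -0.07. The count of calls was 5, 4 and 4 without wild-type replicate 1, 2 or 3, where 11.5%, 11.4% and 11.7% of all genes rose. E2f7, an E2F repressor, rose by 1.44 ± 0.126 SE (limma adjusted p = 0.000188) and E2f2, an E2F activator, rose by 1.31 ± 0.149 (adjusted p = 0.000623). E2f6 fell by 0.96. Tfdp2, a dimer partner of E2F proteins, fell by 0.95, but this value was not stable. It was -0.50 with the run as a block (limma adjusted p = 0.288), -0.48 with the mean of all probe sets (0.292) and -0.57 without leukemia replicate 2 (0.013), and its further probe sets gave -0.31 and -0.18. Its call was also lost without any 1 of the wild-type replicates (0.105 to 0.116), with centred arrays (0.0599) and with no intensity trend (0.0524). Foxm1, the forkhead activator of G2 and M genes, was at 7.47, 7.45 and 7.34 log2 in wild-type and at 6.93, 6.99 and 7.13 in leukemia. All leukemia arrays were lower (change -0.40 ± 0.134 SE, limma adjusted p = 0.0487), and its further probe sets above the filter gave -0.45 and -0.23. That call was lost without any 1 of the 6 arrays (adjusted p = 0.0503 to 0.153, limma), with centred arrays (0.0884) and with the mean of all probe sets (-0.21, 0.211).

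DNA replication genes, which act in the preceding S phase, stood close to all genes in their falls and median. Of 46 tested 3 rose and 11 fell (6.52% and 23.9%, against 16.9% and 25.2% of all genes), with a median of -0.08 against -0.09. The named genes were the replication inhibitor Gmnn (0.50) and the primase-linked polymerase Pola1 (0.46) among the rises and the helicase subunit Mcm2 (fell by 1.02) and the polymerase subunit Pold2 (fell by 0.76) among the falls. The further probe set of Mcm2 gave -0.23. The call of Pola1 was lost with the run as a block (0.35, limma adjusted p = 0.102), with the replicate block (0.0625), without wild-type replicate 1 (0.0798) or 3 (0.0968) and without leukemia replicate 3 (0.062), and that of Gmnn without wild-type replicate 1 (0.051). The total of calls was 14, and 7 without wild-type replicate 1 and 7 without replicate 3, where 11.5% and 11.7% of all genes rose. CHR letters were present in the 300-base promoters of 18.9% of 37 replication genes and of 40.6% of 106 other mitosis genes, against the 75.9% of the mitosis genes.

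**Figure D4:**
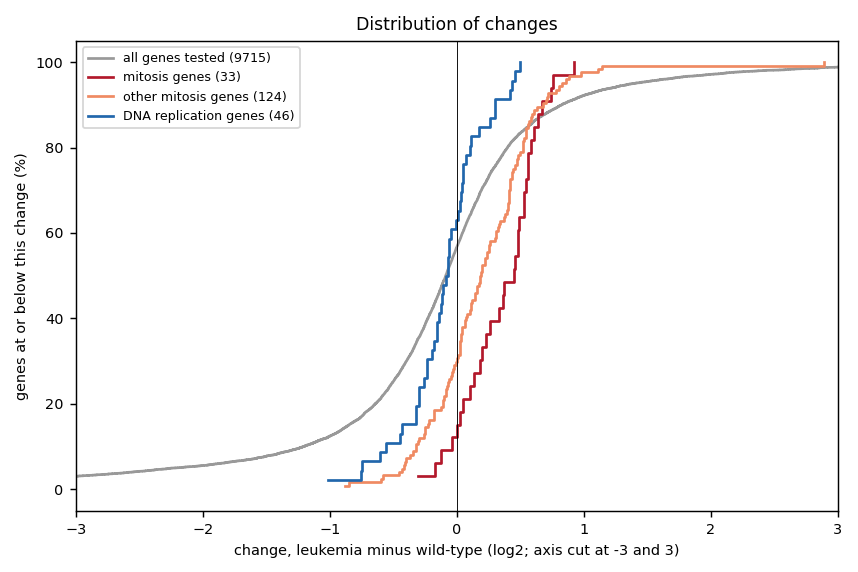
Share of genes (%) at or below each change from wild-type to leukemia on the log2 scale, for all 9715 genes tested (grey), the 33 mitosis genes (red), the 124 other mitosis genes (orange) and the 46 DNA replication genes (blue), with the axis ending at -3 and 3. The red curve crosses the middle at 0.45, to the right of the orange (0.19), blue (-0.08) and grey (-0.09) curves, and does not reach a change of 1.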

How the data were processed

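Expression was measured on Affymetrix Mouse430_2 arrays (1 chip lot, and 2 hybridization runs inferred from the hybridization date entries of the file headers). The authors deposited linear intensity values between 3.31 and 18869. Arrays that share a hybridization date entry in the run records were taken as 1 hybridization run. RMA is named in the submitters' processing notes, and further steps are not given in the sources used here. Log2 was taken with no pseudocount. Of 28821 probe sets 23750 had 1 symbol in the platform annotation. The brightest per gene was kept, and genes whose intensity reached the 40th percentile of an array on 3 or more arrays were tested in R 4.3.3. The test was that of limma 3.58.1 (a trended eBayes fit, two-sided, Benjamini-Hochberg over 9715 genes, threshold 0.05, 4 residual degrees of freedom). With 3 samples against 3 an exact permutation test cannot go below p = 0.1, so none is given. The procedure was tested on simulated data. All 6 value columns were mapped, leaving 0 unused.

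The members and lists were chosen with earlier results of these data known. Values on every array are given for the largest and smallest change of each role and for Mki67, Cdk1, Cdc20 and Foxm1 (Ccnb1 was not measured). Cdc25b, Fzr1, Plk1, Bub1b and Klf1 were given such values after theirs were seen. Of each other list up to 2 genes per direction with the largest change among those past the threshold are named. Promoter windows are from RefSeq (GRCm38.p6), of which Cdc20 and Cdk1 were chosen after their values were seen. Figures were drawn with matplotlib 3.10.9.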

Additional observations from a re-analysis of the deposited data

How the results depend on the processing

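The 17 alternatives changed the filter, the probe set rule, the pseudocount, the scaling, the moderation, the weights, the blocks or the arrays used. Over 552 values of members, 462 kept their direction and side of the threshold, 56 lost and 15 gained the call with the same sign, and 19 changed sign. Among these 19, Cdca8 and Kif2c with probe sets free of shared endings also lost their calls. The count of risen members ran from 8 to 18 with an array left out, and the share of all genes that rose from 11.4% to 19.9%. With the run as a block 2 members fell, 15 other mitosis genes fell and 22 replication genes were called. The replicate numbers did not pair the samples (same-numbered deviations correlated at -0.069, 0.05 and 0.03). With the replicate block 14 members rose, and 14.9% of all genes did.

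Without a replicate the other mitosis genes that rose numbered 19 to 40 and those that fell 1 to 10. The regulators called numbered 4 to 9 and the replication genes called 7 to 16. Of all genes 11.4% to 19.9% rose in these fits. Other mitosis genes that fell numbered 3 with the mean of all probe sets and 4 with centred arrays. Signs turned for Plk1 (0.04 with centred arrays, 0.14 with array weights, -0.25 to 0.24 without a replicate), for Aurka (-0.37), Ttk (-0.15), Kif11 (-0.32) and Top2a (-0.27) with the run as a block, for Top2a with the mean (-0.01) and for Cdca8 (-0.14), Kif2c (-0.31) and Top2a (-0.08) with probe sets free of shared endings. Without a replicate the changes of Aurka ran from -0.14 to 0.21, of Kif11 from -0.22 to 0.16, of Kif20a from -0.14 to 0.33 and of Top2a from -0.14 to 0.21. The cause was not tested. Dim genes lie near background, which limits their changes; no member was among them.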
